A study of Homo sapiens with 15 samples.

Results

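Regions bound by BG4, an antibody against DNA G-quadruplexes, in both libraries of biological replicate 1 and in no library of biological replicate 2 were described in K562, an established line from a human chronic myelogenous leukaemia that has erythroid traits. The 5 peak lists were merged into union regions on chromosomes 1 to 22, and a region was kept when it was overlapped by 1 base or more by peaks of libraries 1a and 1c and by no peak of libraries 2a, 2b or 2c. This rule kept 596 of 17876 union regions (3.33%), called the replicate 1 only regions here. The mirror class, with peaks in all 3 libraries of replicate 2 and in none of replicate 1, held 227 regions, and 4861 regions had peaks in all 5 libraries. The rule rests on the presence of called peaks, so peak strength and width belong to the choice and are given as description without a test. Leaving out library 1a left 2476 such regions, leaving out 1c left 3351 and leaving out 2c left 1037. Without 1a or 1c the rule needs a peak in only 1 library.

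Both biological replicates came from asynchronous K562 cells fixed with 1% formaldehyde, and they differed in no treatment or genotype that the labels give. Libraries 1a and 1c are technical libraries of replicate 1, and 2a, 2b and 2c of replicate 2. The set therefore rests on 1 biological sample against 1 other, and no biological replicate of the difference exists. The lists held 12495 and 10079 peaks in 1a and 1c, against 8059, 9026 and 11111 in 2a, 2b and 2c, and the number of reads behind them is unknown. The peak names in lists 2a and 2c carry each other's letter; the labels of the samples were used, and membership does not depend on it because the 3 lists of replicate 2 were treated alike. The series' inputs (2 libraries) and bisulfite libraries of HaCaT keratinocytes (8) were not analysed here.

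G-quadruplexes form when runs of guanine in a strand stack into planes of 4 guanines. In human chromatin they are found mostly in nucleosome-depleted, GC-rich promoters of active genes, and many of these lie in CpG islands that lack DNA methylation. K562 carries the Philadelphia chromosome, a translocation that joins the 5′ part of BCR on chromosome 22 to the 3′ part of ABL1 on chromosome 9.

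Sequences of 7 replicate 1 only regions are shown, 220 bases each from the reference genome (hg19), chosen from regions that touch no annotated exon. They were picked to show the kinds of sequence in the set, after the values were known. Capitals mark a G4 motif, that is 4 stretches of 3 or more G parted by 1 to 7 bases, written on the strand that holds the G runs. The parting bases could themselves be G. In MICALL2 the longer unbroken run of G was therefore counted as more than 1 stretch. The LTF and MICALL2 regions were high-ranked regions with a motif outside genes (chr3:46530293-46530512, plus strand; chr7:1458264-1458483, minus strand). The PI4KB region was the highest-ranked of those touching no exon that had neither a motif nor a tandem repeat, and has no capitals (chr1:151284133-151284352, plus strand).
LTF: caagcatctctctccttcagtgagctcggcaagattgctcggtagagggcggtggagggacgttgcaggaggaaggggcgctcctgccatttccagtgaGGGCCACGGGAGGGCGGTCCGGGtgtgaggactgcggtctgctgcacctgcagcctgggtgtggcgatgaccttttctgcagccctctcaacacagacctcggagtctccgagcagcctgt
MICALL2: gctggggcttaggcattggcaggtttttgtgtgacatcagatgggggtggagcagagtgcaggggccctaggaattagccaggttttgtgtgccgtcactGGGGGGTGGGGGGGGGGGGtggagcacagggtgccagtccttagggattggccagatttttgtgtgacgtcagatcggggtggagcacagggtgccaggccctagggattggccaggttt
PI4KB: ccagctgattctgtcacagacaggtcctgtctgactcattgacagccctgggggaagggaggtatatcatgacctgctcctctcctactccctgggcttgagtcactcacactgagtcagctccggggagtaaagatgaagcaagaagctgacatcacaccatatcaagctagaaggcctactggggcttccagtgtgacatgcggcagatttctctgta

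The next 3 come from introns of genes that held many of the regions. They lie at chr22:23458536-23458755 in GNAZ (minus strand), chr9:133784020-133784239 in FIBCD1 (plus strand) and chr22:23562588-23562807 in BCR (minus strand). The last comes from an intron of TTC34 (chr1:2585241-2585460, plus strand), where the capitals mark 1 unit of a tandem repeat with a period of 40 bases.
GNAZ: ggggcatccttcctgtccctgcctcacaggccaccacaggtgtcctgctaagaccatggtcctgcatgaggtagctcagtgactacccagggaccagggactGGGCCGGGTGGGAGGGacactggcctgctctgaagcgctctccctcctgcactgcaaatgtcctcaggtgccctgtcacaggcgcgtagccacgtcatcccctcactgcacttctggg
FIBCD1: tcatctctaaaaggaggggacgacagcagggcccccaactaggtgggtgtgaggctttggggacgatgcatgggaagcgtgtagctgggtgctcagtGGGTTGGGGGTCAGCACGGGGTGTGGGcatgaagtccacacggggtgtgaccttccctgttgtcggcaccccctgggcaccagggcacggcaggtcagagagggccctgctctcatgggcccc
BCR: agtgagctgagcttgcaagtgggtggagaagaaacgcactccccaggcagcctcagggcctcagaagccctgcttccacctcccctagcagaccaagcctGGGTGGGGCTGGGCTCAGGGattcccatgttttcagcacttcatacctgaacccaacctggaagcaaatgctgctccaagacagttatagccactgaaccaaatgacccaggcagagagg
TTC34: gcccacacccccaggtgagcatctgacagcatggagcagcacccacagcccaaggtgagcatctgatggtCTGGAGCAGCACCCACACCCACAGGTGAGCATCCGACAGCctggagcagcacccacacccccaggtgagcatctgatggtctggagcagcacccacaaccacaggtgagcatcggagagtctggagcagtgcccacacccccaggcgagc

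Replicate 1 only regions lay at promoters less often, and in introns more often, than any of the classes they were compared with. A promoter, here up to 1 kb to either side of the start of a protein-coding transcript, was touched by 206 of the 596 regions (34.6%), against 76.2% of the mirror class, 82.0% of regions in all 5 libraries and 58.1% of all union regions. The difference from the mirror class was -41.6 percentage points (95% Newcombe interval -47.9 to -34.5). The mirror class is not a like class in strength. It needs peaks in 3 libraries and the set in 2, and its peaks ranked higher in their lists, as given below. Introns away from promoters held 187 regions (31.4%), against 7.93% of the mirror class, 7.20% of regions in all 5 libraries and 19.3% of all union regions. Other exons held 37 (6.21%), against 4.03% of all union regions, and 166 (27.9%) lay outside protein-coding genes, against 18.5%. A start site of any annotated transcript lay within 1 kb of 50.7%, against 84.1% of the mirror class and 69% of all union regions. For 96 of the regions no such start was that of a protein-coding transcript, though the gene itself can be protein-coding. These and later intervals are for counting error alone, and regions that lie close together are not independent.

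The size of these differences depended on how peaks were thresholded, so the same classes were rebuilt from stronger peaks and from lists of equal length. With all lists limited to peaks with −log10 p of at least 10, 395 regions fitted the rule, and the promoter share was 57.5%, against 82.6% in the mirror class and 70.4% in all union regions. The intron share was then 16.2%, against 6.83% in the mirror class and 12.8% in all union regions. With the 5 lists at equal length, 334 regions fitted the rule and 340 fitted its mirror. The promoter share was then 50.9%, against 78.5%, and the intron share 20.4%, against 7.65%. The order of the classes thus remained under both, with smaller differences.

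**Figure D1:**
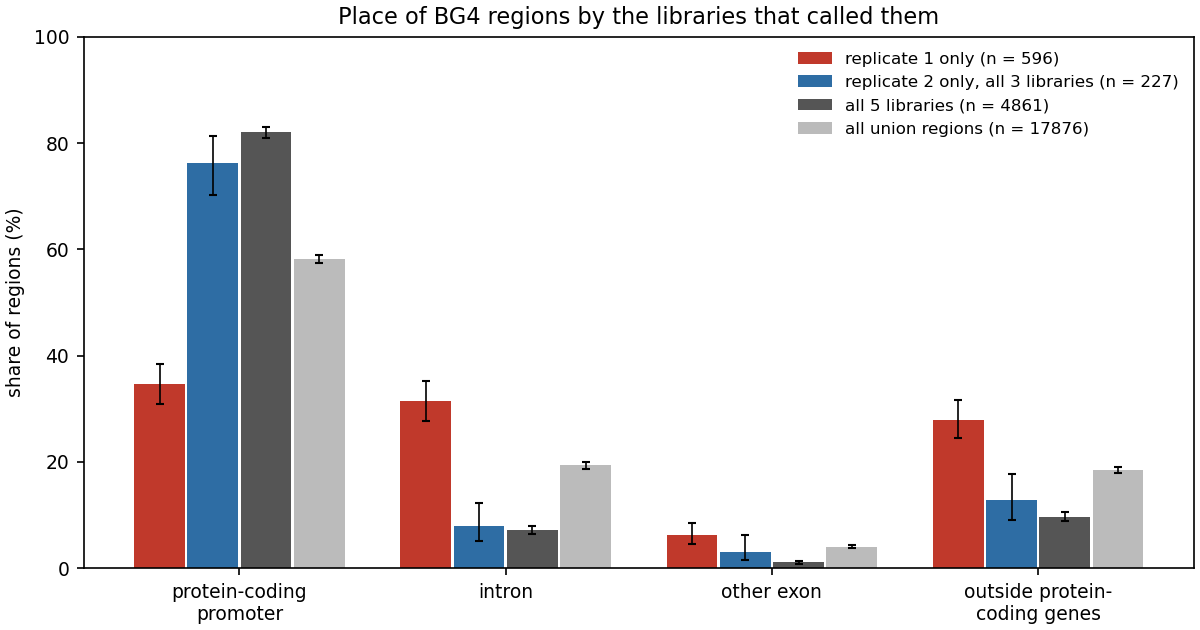
Share of regions (%) at protein-coding promoters, in introns, in other exons and outside protein-coding genes, for the replicate 1 only regions (red, n = 596), the mirror class (blue, n = 227), regions in all 5 libraries (dark grey, n = 4861) and all union regions (light grey, n = 17876), with 95% Wilson intervals. The red bar is the lowest of the 4 at promoters (34.6%) and the highest in introns (31.4%).

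The regions also held less GC, fewer CpG islands and fewer G4 motifs than the other classes. The median GC content was 63.1% in replicate 1 only regions, against 70.4% in the mirror class, 69.9% in regions of all 5 libraries and 66.5% in all union regions. A CpG island was here any window of 200 bp with a GC share of 0.5 or more. It also had to hold 0.6 or more of the CpG dinucleotides its base composition predicts. Such an island overlapped 48.8% of the regions, against 89.9% of the mirror class and 70.6% of all union regions. A G4 motif lay wholly inside 127 regions (21.3%), against 37% of the mirror class, 52.4% of regions in all 5 libraries and 31.3% of all union regions. Wider regions have more room for a motif, and the median widths were 248.5, 226, 384 and 230 bp in the same order. With the replicate 1 only regions widened by 100 bp their share was 34.4%, and the other classes were not widened. Without widening, the motif was on the plus strand in 64 regions, on the minus strand in 67 and on both in 4 of these, and 19 regions held 2 or more. Neither island nor motif was present in 41.3% of the regions, against 4.57% of regions in all 5 libraries and 25.3% of all union regions. With all lists limited to −log10 p of at least 10, islands overlapped 73.9%, against 96.3% of the mirror class, and motifs lay in 26.3%, against 37.9%. Within the set, islands overlapped 83.0% of the promoter regions and 22.5% of the intronic ones, while the motif shares were 23.8% and 20.3%.

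Regions were also compared within bins of GC content. Among regions with 60 to 70% GC, 33.4% of the 347 replicate 1 only regions lay at promoters, against 73.2% of 71 in the mirror class, 79.8% of 2136 in all 5 libraries and 55.6% of 8125 union regions. Between 70 and 80% GC the promoter shares were 70.3% of 74 replicate 1 only regions, against 87.4% of 103 in the mirror class and 80.4% of 5409 union regions. Between 50 and 60% GC they were 21.2% of 156, against 45.7% of 35 and 26.9% of 3316. Below 50% GC the order was the other way, with 18.8% of 16 replicate 1 only regions at promoters, against 8.29% of 350 union regions, and above 80% GC the set held 3 regions. With 60 to 70% GC the motif share was 23.1%, against 26.8% in the mirror class, 39.9% in all 5 libraries and 25% in all union regions. Between 70 and 80% GC it was 44.6%, against 48.5%, 67.7% and 53.1% in the same order. Between 50 and 60% GC it was 8.97%, below the mirror class (14.3%) and all 5 libraries (11.9%) but above all union regions (6.30%).

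Tandem repeats, arrays with a period of 5 to 100 bases, at least 3 copies and an identity of 0.8 or more between them, touched 45 regions (7.55%), against 4.85% of the mirror class, 7.47% of regions in all 5 libraries and 5.52% of all union regions. The difference from the mirror class was 2.70 percentage points, with an interval that included 0 (-1.37 to 5.91). The share was 4.15% without library 1c and 13.9% with replicate 1 limited to −log10 p of at least 10. The median period was 45 bases in the replicate 1 only regions, against 20 in the mirror class (11 regions), 18 in all 5 libraries and 23 in all union regions. The median array length was 196 bases, against 83, 75 and 91 in the same order. Of the 45 regions with an array, 18 lay in introns and 5 at promoters. Close together in TTC34 lay 7 of them, with periods of 40 or 80 bases, so the 45 are not independent.

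Sequence present more than once in the reference genome was more common in the set. For each region the 25-base words were counted over the whole reference, and the median count was 2 or more in 33 regions (5.54%), against 0.441% of the mirror class, 0.843% of regions in all 5 libraries and 2.16% of all union regions. The difference from all union regions was 3.37 percentage points (1.79 to 5.52). None of the 33 was at a promoter, 20 lay outside protein-coding genes, 12 in introns and 1 in another exon, and 15 held a tandem repeat. Their median lower percentile of fold enrichment was 1.88, near the bottom of both lists. Reads from such sequence can be assigned to several places, and how the authors' alignment treated them is not given in the sources used here; its part in these peaks was not tested. The highest word counts, 31 and 20.5, were in a region 4842 bp from the start of FRG2C (chr3:75718323-75718543) and in an intron of CYP3A7-CYP3A51P (chr7:99284031-99284296). An intronic region of TFRC, the transferrin receptor gene, had a count of 2.

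**Figure D2:**
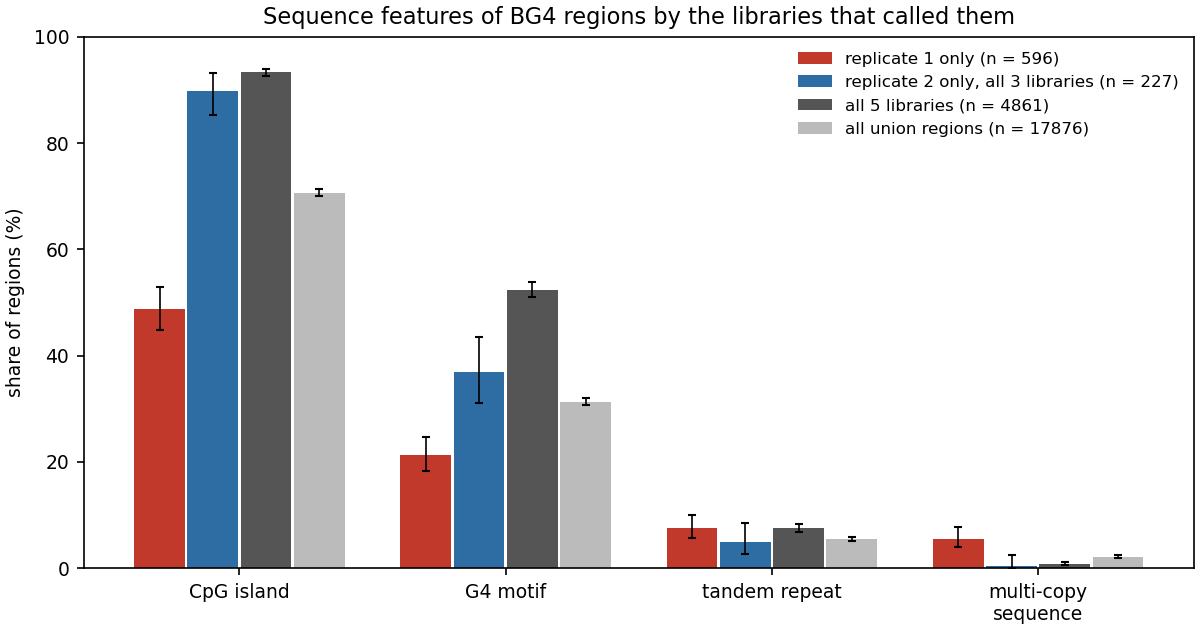
Share of regions (%) that overlapped a CpG island, held a G4 motif, touched a tandem repeat or had multi-copy sequence, in the replicate 1 only regions (red, n = 596), the mirror class (blue, n = 227), regions in all 5 libraries (dark grey, n = 4861) and all union regions (light grey, n = 17876), with 95% Wilson intervals. The red bar is the lowest for islands (48.8%) and motifs (21.3%) and the highest for multi-copy sequence (5.54%).

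Most of the regions were weak peaks of replicate 1, a property tied to how they were chosen. The fold enrichment, the authors' ratio of signal to local background at a peak, ranged from 1.98 to 11.4 with a median of 5.31 in library 1a, and from 1.96 to 10.2 with a median of 5.39 in 1c. Ranked within each list, the regions had median percentiles of 20.5 in 1a and 23.6 in 1c. Those of the mirror class were 40.6, 40.3 and 48.6 in 2a, 2b and 2c. The lower of the 2 percentiles of a replicate 1 only region had a median of 14.6, against 63.9 for regions in all 5 libraries. Both percentiles were at least 50 in 41 regions (6.88%), against 66.7% of regions in all 5 libraries. Both were under 10 in 148 regions, and 102 of these lay in the chromosome 22 and 9 stretches described below. The log2 fold enrichment in 1a and 1c was related across the regions, with a Pearson r of 0.738 and a Spearman rho of 0.665 (n = 596 regions of the same biological sample, given as a description). The Pearson r was 0.564 for the 440 regions outside these stretches and the groups on chromosomes 1 and 2, also described below. The weaker −log10 p of a region had a median of 7.99 and a lowest value of 5.0, which is where the lists end, and 101 regions reached 10 in both lists. The median width was 248.5 bp, against 226 bp in the mirror class and 384 bp in regions of all 5 libraries.

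The regions just outside the rule were 634 with peaks of both replicate 1 libraries and 1 library of replicate 2, whose median lower percentile was 30.8. The peaks of replicate 2 in them had a lowest −log10 p of 5.08 and a median of 9.06. Another 4591 regions had a peak in 1 library of replicate 1 alone, 2732 in 1a and 1859 in 1c. Inside the rule, the nearest peak of replicate 2 lay within 100 bp of 12 regions and within 1 kb of 99 (16.6%), and the closest were 8, 17 and 17 bp away. Promoter regions were more often so placed, with 61 of 206 (29.6%) within 1 kb, and the intronic ones less often, with 21 of 187. The median distance was 12224 bp.

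The highest-ranked region lay 295 bp from the start of BANP, which encodes a nuclear protein that binds CpG-rich promoter DNA (chr16:87984487-87984741). Its fold enrichment was 11.4 in 1a and 9.29 in 1c, at percentiles 90.5 and 85.3, with no motif, and the nearest replicate 2 peak was 126 bp away. The promoter region of MACO1, the gene of a neuronal membrane protein of the endoplasmic reticulum, had folds of 9.71 and 8.49 and also lay within 1 kb of RHCE, a blood group antigen gene of red cells. A promoter region shared by TMEM276 and an overlapping gene model on chromosome 8 had folds of 10.6 and 7.60 and held a motif. MEIG1, which mice need to form sperm, and PAFAH1B2, a catalytic subunit of platelet-activating factor acetylhydrolase, had the same fold in 1a (8.11) and 8.66 and 8.67 in 1c. The MEIG1 region held a motif and lay 36 bp from a replicate 2 peak, whereas the nearest one to the PAFAH1B2 region was 34292 bp away. ESCO2, a cohesin acetyltransferase, had folds of 9.18 and 7.58, and EIF4A3, the helicase at the core of the exon junction complex, 9.15 and 7.56. The EIF4A3 promoter region touched a tandem repeat with a period of 20 bases, and the nearest peak of replicate 2 was 45512 bp away.

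Of the 10 highest-ranked regions, 7 were at promoters, those of ANKRD27 and PI4KB in introns and that of LTF outside genes. The intronic region of ANKRD27, which encodes a regulator of endosomal traffic, had folds of 9.15 and 8.05 (chr19:33119376-33119648), and that of PI4KB, a lipid kinase of the Golgi, 9.20 and 8.02 (chr1:151284108-151284378). Their GC contents were 58.2% and 51.7%, and neither held an island, a motif or a tandem repeat. The PI4KB sequence printed above has runs of G, but no 4 of them at the spacing of a motif. An intronic region of RPS9, a protein of the small ribosomal subunit, had folds of 7.57 and 8.13 and a GC content of 50.4%. The LTF region lay outside genes, 3559 bp from the start of the lactoferrin gene, with folds of 7.97 and 7.78, an island and a motif, and 69408 bp from the nearest replicate 2 peak. Among exons, the highest ranked were in KAZALD1, a Kazal-domain protein gene (7.57 and 7.59), GJD3, a connexin gene (6.57 and 6.57), and FAM230A (7.47 and 6.31). Outside genes, a region 21575 bp from EIF1, a factor for start codon selection, had folds of 8.49 and 7.45, and a region 41662 bp from KCNK5, a potassium channel gene, had 7.97 and 8.12. After EIF4A3, the highest-ranked regions with a tandem repeat lay 19787 bp from ZNF778, a zinc finger gene (period 90 bases, folds 8.65 and 7.05), and in an intron of RPH3AL, a gene of regulated exocytosis (period 62 bases, folds 7.53 and 6.98).

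**Figure D3:**
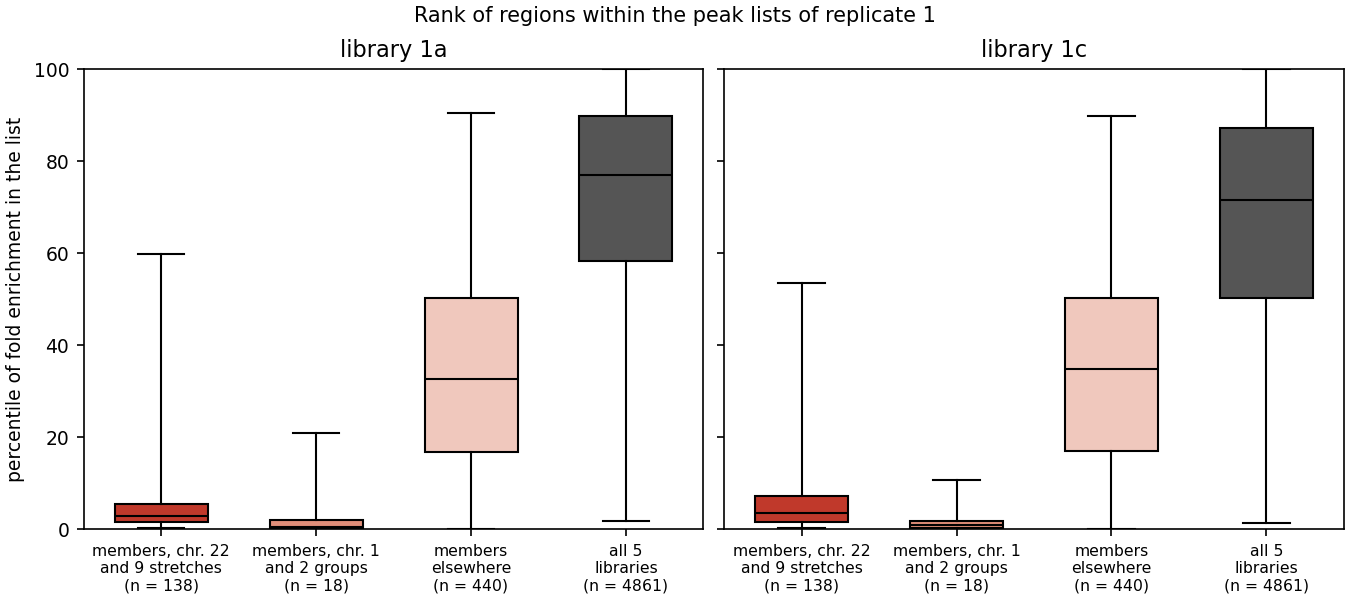
Percentile of fold enrichment within the peak lists of library 1a (left) and 1c (right) for the replicate 1 only regions in the chromosome 22 and 9 stretches (n = 138), in the chromosome 1 and 2 groups (n = 18) and elsewhere (n = 440), beside regions in all 5 libraries (n = 4861). Boxes span the quartiles with the median as a line and whiskers reach the extremes; medians in 1a were 2.95, 0.528, 32.7 and 77.1.

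The regions were bunched along the chromosomes. Another replicate 1 only region lay within 100 kb of 248 of them (41.6%), against 10.6% of the mirror class, 15.4% of regions in all 5 libraries and 18.9% of all union regions, the distance being to a replicate 1 only region in each class. How close the regions of the other classes lay to their own kind was not measured. The share in the set was 65.1% without library 1a and 64.7% without 1c. It was 20.8% with replicate 1 limited to −log10 p of at least 10, 25.8% with all lists so limited and 18.3% with lists of equal length. Without the chromosome 22 and 9 stretches it was 25.1%, beside 15.7% of all union regions outside them. Chained at gaps of at most 100 kb, these 248 formed 52 chains, 43 of them with 2 to 5 regions and 9 with 6 or more, and the 9 held 147 regions. Within 5 Mb of a chromosome end lay 19.1% of the regions, against 14.5% of the mirror class and 20.3% of all union regions. Chromosome 22 held 118 regions, 19.8% of the set (exact binomial interval 16.7 to 23.2%) on 1.78% of the autosomal length. Of the union regions on chromosome 22, 12.6% belonged to the set, against 1.29 to 4.68% on the other autosomes. The share of the set on chromosome 22 was 12% without library 1a, 11.3% without 1c and 13.1% without 2c. It was 5.82% when all lists were limited to −log10 p of at least 10 (3.76% of all union regions) and 8.98% with lists of equal length (4.16%).

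On chromosome 22, 114 regions lay between chr22:18268073 and 23623754, a span of 5.36 Mb that ends inside BCR. The window of 18 to 24 Mb around them was drawn after their positions were known. It held 655 union regions, of which 483 (73.7%) had peaks of replicate 1 alone in either library and 38 (5.80%) of replicate 2 alone. In the rest of the autosomes, outside this window and the one on chromosome 9, these shares were 27.0% and 18.1%. Libraries 1a and 1c had 467 and 374 peaks in the window, against 113, 105 and 154 in 2a, 2b and 2c. As shares of the lists these were 3.81% and 3.78%, against 1.43%, 1.18% and 1.41%. The window was placed where replicate 1 only regions were dense, so an excess of replicate 1 peaks in it follows from the choice and is a description only. Among peaks whose −log10 p was 10 or more, the counts were 163 and 139, against 73, 70 and 83. Copy number in either replicate was not measured here.

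A shorter stretch lay on chromosome 9 beyond ABL1. It held 24 regions within 283 kb (chr9:133770669-134053991), the first of them 7.61 kb past the 3′ end of ABL1. Libraries 1a and 1c had 69 and 46 peaks between 133.6 and 134.1 Mb, against 4, 3 and 4 in 2a, 2b and 2c. Of the 83 union regions there, 78 had peaks of replicate 1 alone and none of replicate 2 alone. This window too was placed where replicate 1 only regions were dense. An excess of replicate 1 peaks, and few mirror regions, in either window thus follow from the choice and are a description only. At −log10 p of at least 10 the peak counts were 13 and 15, against 2, 2 and 1. Both stretches together held 138 of the 596 regions, against 738 of 17876 union regions. At that threshold they held 27 of 395, against 246 of 10728 union regions and 0 of 161 in the mirror class. With lists of equal length they held 33 of 334, against 367 of 13447 and 1 of 340 in the same order.

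**Figure D4:**
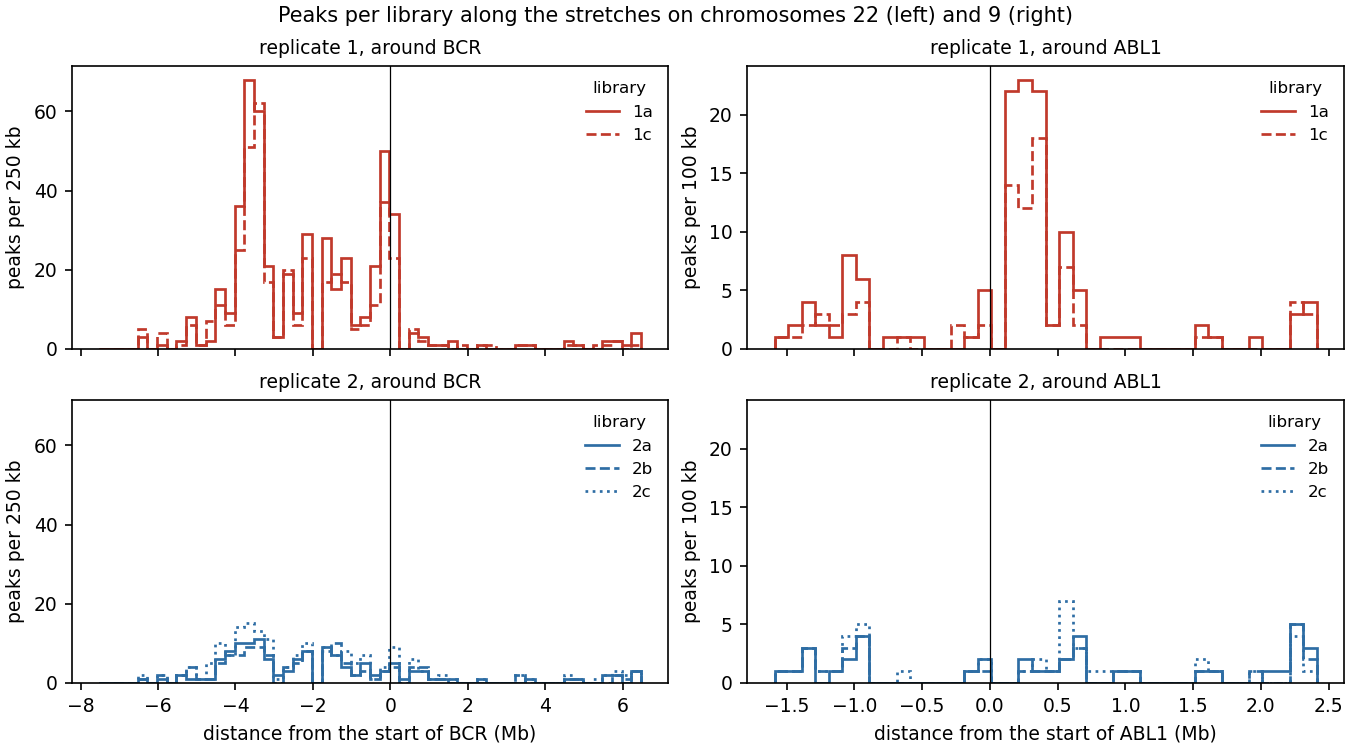
Number of peaks along chromosome 22 in bins of 250 kb around the start of BCR (left) and along chromosome 9 in bins of 100 kb around the start of ABL1 (right), for the libraries of replicate 1 (top) and replicate 2 (bottom); the x axis is the distance from the start of the gene in Mb and the vertical line marks that start. The replicate 1 counts are high before and just after the start of BCR and drop beyond it, and on chromosome 9 they are high just after ABL1; the windows held 467 and 69 peaks of 1a, against 113 and 4 of 2a.

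BCR itself, whose 5′ part forms the first portion of the fusion protein, was touched by 33 union regions, counting those within 1 kb. Of these 7 were replicate 1 only and all intronic, 12 had a peak in 1a alone, 5 in 1c alone, 8 in both replicates and 1 in replicate 2 alone. The fold enrichment of the 7 ranged from 2.86 to 3.88 in 1a and from 2.92 to 4.69 in 1c. The last union region in BCR ended at chr22:23632238, 28.0 kb before the end of the gene, and the next lay 113 kb further on, while the next replicate 1 only region lay 4.50 Mb beyond the last one in BCR. ABL1, which encodes the tyrosine kinase of the fusion, was touched by 4 union regions and by no replicate 1 only region.

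GNAZ, a G protein alpha subunit gene, and RSPH14, a radial spoke gene that overlaps it, held 12 and 13 replicate 1 only regions, all intronic and 12 of them in both. Their folds in 1a ranged from 3.00 to 4.13. Of 46 union regions in RSPH14, 30 others had a peak in only 1 library of replicate 1 (19 in 1a and 11 in 1c) and 3 had peaks in both replicates. On chromosome 9, FIBCD1, the gene of a chitin-binding receptor, held 9 and LAMC3, a laminin gamma chain, held 8, with median folds in 1a of 3.62 and 3.25. QRFP, which encodes a neuropeptide, held 3, and NUP214, a nucleoporin, held 1 at an internal start site, with folds of 4.42 and 4.88.

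The longest chain held 44 regions over 637 kb (chr22:19667144-20304250), among 259 union regions. Of the 44, 18 were intronic and 11 at promoters, and their genes included TBX1, a T-box factor of pharyngeal development with 4 regions, and ARVCF, an armadillo-repeat catenin with 6. TRMT2A, a tRNA methyltransferase gene, held 4, all at promoters, and ZDHHC8, a palmitoyltransferase gene, held 5. The next chain held 34 regions over 599 kb (chr22:23024763-23623754) with BCR, GNAZ, RSPH14, RAB36 and IGLL5, none at a promoter and 21 in introns.

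Inside the 2 stretches the regions were wider, weaker and less often at promoters than elsewhere in the set. Their median fold enrichment in 1a was 3.80, against 5.94 for the 440 regions outside the stretches and the groups on chromosomes 1 and 2, and their median lower percentile was 2.44, against 21.4. The promoter share was 13.8%, against 42.5%, the intron share 47.1%, against 25.9%, and the island share 21.0%, against 57.3%. The motif share was 23.2%, against 21.4%. All 738 union regions in the stretches leaned the same way, with 20.7% at promoters, 39.2% in introns and 27.8% in islands. These 738 include the replicate 1 only regions, and most had peaks of replicate 1 alone (483 of 655 on chromosome 22, 78 of 83 on chromosome 9). The regions of all 5 libraries in the stretches leaned much less, with 70.5% at promoters, 14.1% in introns and 83.3% in islands. For regions of all 5 libraries outside the stretches these shares were 82.2%, 7.09% and 93.5%. Those 440 regions still had a lower promoter share than regions in all 5 libraries outside the stretches (82.2%) and all union regions outside the stretches (59.7%). Low rank in the stretches was not limited to the replicate 1 only regions. The 78 regions of all 5 libraries there had median percentiles of 51.2 and 53.9 in 1a and 1c and of 35, 25 and 16.9 in 2a, 2b and 2c, against 77.3 and 71.7 and 65.2, 66.3 and 73.9 for those outside the stretches.

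**Figure D5:**
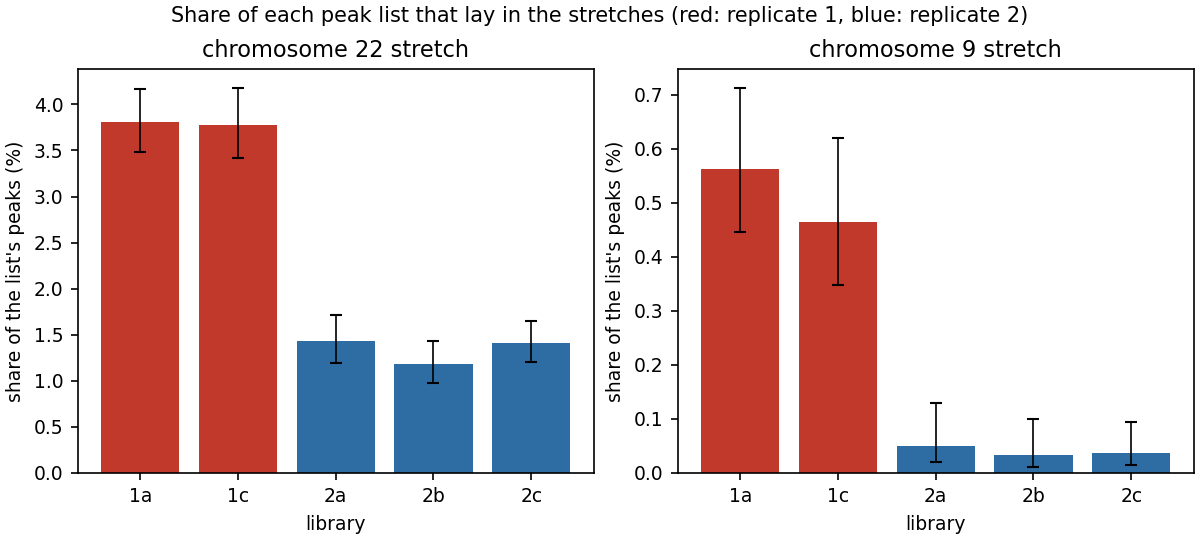
Share of the peaks of each list (%) that lay in the chromosome 22 window (left) and the chromosome 9 window (right), for libraries of replicate 1 (red) and replicate 2 (blue), with 95% Wilson intervals for counting error. The bars describe windows placed where replicate 1 only regions were dense, and libraries of a replicate are technical; on chromosome 22 they stand at 3.81% and 3.78% in replicate 1 and at 1.18 to 1.43% in replicate 2.

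Outside the stretches, 2 further groups of regions lay close together, on chromosomes 1 and 2. On chromosome 1, 7 regions lay within 43.2 kb in introns of TTC34, a gene of a tetratricopeptide repeat protein (chr1:2585238-2628460). All 7 touched tandem repeats with a period of 40 or 80 bases and had multi-copy sequence, and none held an island or a motif. The unit capitalised in the TTC34 sequence above recurs along that region, which had a median word count of 12.5. Their folds ranged from 3.15 to 5.32 in 1a and from 2.76 to 4.39 in 1c. On chromosome 2, 11 regions lay within 24.3 kb (chr2:133011846-133036139), 1 in an intron of ANKRD30BL, an ankyrin repeat gene model, and 10 outside protein-coding genes. Of the 11, 10 overlapped an island by the criteria used, 1 held a motif, 1 touched a tandem repeat and 2 had multi-copy sequence, at a median GC content of 55.6%. Their folds ranged from 2.16 to 3.57 in 1a and from 2.19 to 4.63 in 1c, yet their −log10 p reached 16.1 and 19.7. Libraries 1a and 1c had 14 and 16 peaks in the 100 kb around them, against 1, 1 and 0 in 2a, 2b and 2c.

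In all, 427 of 19222 protein-coding genes (2.22%) had a replicate 1 only region in the gene or within 1 kb, and 155 regions were in no gene. The number of genes was 1596 without library 1a, 2226 without 1c and 822 without 2c. In 34 genes there were 2 or more regions, 116 in all (19.5%), a share that was 30.7% without 1a and 29.8% without 1c. It was 5.68% without the chromosome 22 and 9 stretches. Of 14 genes of the DNA methylation machinery, 2 had a region. The first overlapped the promoter of S1PR2, a sphingosine phosphate receptor gene, within 1 kb of DNMT1, the maintenance methyltransferase (chr19:10342020-10342286, folds 6.29 and 7.29). The other covered a start site of TET1, which oxidises methylcytosine (chr10:70320024-70320262, folds 5.98 and 5.81). Both were in islands and held a motif. Of 21 erythroid and megakaryocytic genes, EPOR, the erythropoietin receptor, and TFRC had an intronic region. The EPOR region had folds of 10.3 and 6.41, held a motif and lay 379 bp from a replicate 2 peak (chr19:11493485-11493757). The TFRC region had folds of 5.40 and 6.50.

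Of 8 genes of the BCR-ABL1 fusion and its signalling, BCR alone had a region, and of 16 genes with textbook promoter quadruplexes none had. None of 6 keratinocyte, 3 hepatocyte and 3 lymphocyte genes had a region. Gene families were taken by the start of the symbol, so a list can hold genes of another kind. Regions were in 3 of 93 KCN genes (among them KCNN1 and KCNQ1), 1 of 42 collagen genes (COL23A1) and 1 of 21 PTPR genes (PTPRN2). They were in 2 of 24 genes with symbols that start with ADAMTS, both of them ADAMTS-like genes (ADAMTSL4 and ADAMTSL5). They were in 11 of 371 genes with symbols that start with SLC, among them SLC30A10, a manganese exporter, with folds of 6.71 and 7.57. In the ZNF family 6 genes had a region (1.19%), among them ZNF432 and ZNF441. Of 93 genes with symbols that start with RPL or RPS, 2 had a region, the ribosomal protein genes RPS9 and RPS14. Regions were also in 1 of 15 PRDM genes (PRDM12) and in 1 of 41 TBC1D genes (TBC1D24). None of 13 CACNA, 39 HOX, 16 TRAPPC and 20 SEMA genes had a region. With lists this short, shares between 0 and 14.3% beside 2.22% of all genes rest on a few regions each. The KCNQ1 region, in the gene of a cardiac potassium channel, had a fold of 9.30 in 1a and 4.26 in 1c.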

How the data were processed

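BG4 chromatin immunoprecipitation was done on K562 cells and sequenced after tagmentation, per the labels' protocols. Peaks were called with MACS2 on hg19, per the submitters' processing notes. The aligner, control library, filters, settings and versions are not given in the sources used here, and the separate lists show that peaks were called per library. In the deposited lists the score was 10 times the −log10 p. The fold enrichment, a ratio of signal to local background, and the −log10 p and −log10 q are the authors' own values, and served to rank, filter and describe the peaks of 1 list at a time. Percentiles are ranks of fold enrichment within a list, ties averaged. Depth is unknown, and no interval here covers sequencing depth.

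Peaks on chromosomes 1 to 22 were merged when they overlapped (951 peaks elsewhere were left out). A region was intronic, exonic or outside protein-coding genes by its middle, and a promoter region came first. Genes were from GENCODE release 44 mapped to GRCh37. Motifs were sought on both strands and wholly inside the region. The reference held no repeat marks, so interspersed repeats were not assessed, and the count of 25-base words was used instead, a measure chosen after seeing the data. Motif and repeat finders were tested on simulated data. Shares have 95% Wilson intervals, differences Newcombe intervals and chromosome shares exact binomial ones, all for counting error only; no p-value was computed.

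The members, the gene lists and the tests were chosen with earlier results of these data known. Named regions were the 10 with the highest lower percentile in 1a and 1c, the 3 highest of each place and of those with a motif, with a tandem repeat and with neither. Named genes were the 5 with most regions, those of the 5 longest chains and up to 3 of each gene list; some that the rule took are not reported here. The MICALL2 region, FRG2C, CYP3A7-CYP3A51P and the notes on QRFP, NUP214, S1PR2 and RHCE were chosen after their values were seen. Alternatives were stricter and equal-length lists, wider merging, other definitions of each feature and leaving out each library. Python 3.11.15, numpy 2.4.6, pandas 2.3.3, scipy 1.17.1, numba 0.67.0 and matplotlib 3.10.9 were used.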

Additional observations from a re-analysis of the deposited data

How the results depend on the processing

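Of the recomputed values 94 stayed within the 95% interval of the reported value (for counts, within 1.5 times) and 116 did not; the cause was not tested except where the setting changes which regions are counted. Leaving out each library in turn, the number of regions ran from 672 to 3351, the promoter share from 27.9 to 42.1%, that at any start site from 43.5 to 56.8%, in introns from 27.5 to 35.9%, outside genes from 24.3 to 28.1%, in islands from 41.6 to 55.8%, with a motif from 15.8 to 25.1%, with a tandem repeat from 4.15 to 6.85% (lowest without 1c) and within 5 Mb of a chromosome end from 18 to 32.6% (highest without 1a). The share near another such region ran from 38.8 to 65.1%, in genes with 2 or more from 16.3 to 30.7%, on chromosome 22 from 11.3 to 18%, the number of genes from 483 to 2226, the median lower percentile from 15.5 to 22.8 (highest without 1c, and 22 without 2c), the median GC from 63.2 to 63.8% and the median width from 159 to 249 bp (lowest without 1c).

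With only replicate 1 limited to −log10 p of at least 10, 101 regions and 68 genes were left; the shares were 30.7% at promoters, 43.6% at any start site, 24.8% in introns, 39.6% outside genes, 55.4% in islands, 13.9% with a tandem repeat, 20.8% near another, 1.98% in genes with 2 or more and 12.9% on chromosome 22, with a median percentile of 47.3 and width of 256 bp. With all lists so limited, 395 regions were left, with 57.5% at promoters, 67.8% at any start site, 16.2% in introns, 22.8% outside genes, 73.9% in islands, 26.3% with a motif, 5.32% with a tandem repeat, 13.9% near a chromosome end, 25.8% near another, 5.57% in genes with 2 or more and 5.82% on chromosome 22, and medians of 53.7 (percentile), 64.3% (GC) and 267 bp. With lists of equal length, 334 regions were left, with 50.9, 62.9, 20.4, 24.3 and 68.9% at promoters, at any start site, in introns, outside genes and in islands, 18.3% near another, 5.69% in genes with 2 or more, 8.98% on chromosome 22 and a median percentile of 40.8.

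Merging peaks within 500 bp gave 29.7% at promoters, 30.3% with a motif and a median width of 283 bp. Requiring no replicate 2 peak within 1 kb gave 29.2% at promoters and 45.3% at any start site. Start sites within 500 bp gave 30.2% and 42.6%, and within 2 kb 38.8% and 58.7%. The motif share was 36.7% with loops of 1 to 12, 89.8% with runs of 2 or more G and 34.4% with regions widened by 100 bp. The tandem share was 5.37% at 90% identity and 4.87% with 5 copies. Distances of 2 and 10 Mb from a chromosome end gave 11.2% and 28.4%, distances of 20 and 500 kb to another region 29.5% and 59.4%, and islands of 500 bp 37.6%.

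Added after seeing the data, leaving out the chromosome 22 and 9 stretches gave 40.8% at promoters, 56.8% at any start site, 26.6% in introns, 57.2% in islands, 24.9% near a chromosome end, 25.1% near another, 5.68% in genes with 2 or more and 0.873% on chromosome 22, with a median percentile of 20.8 and width of 232.5 bp. Without the chromosome 1 and 2 groups as well, these were 42.5, 58.9, 25.9, 57.3, 24.3, 22, 4.32 and 0.909%, with medians of 21.4 and 233 bp.

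No paired analysis was possible because the technical letters of different biological replicates name no shared sample and no test between samples was made. Depth is unknown, so a missing peak of replicate 2 means only that none was called. With 1 biological sample on each side, the replicate and its library preparation cannot be told apart.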
